A study of Mus musculus with 10 samples.

Results

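The genes described here are 10 markers of the primitive endoderm: Gata4, Gata6, Sox7, Sox17, Foxa2, Dab2, Pdgfra, Lama1, Col4a1 and Col4a2. They were followed in mouse embryonic stem (ES) cells of 4 genotypes: wild type (WT), Tet1 knockout (T1KO), Tet2 knockout (T2KO) and the double knockout (DKO). Tet1 and Tet2 encode dioxygenases that oxidise 5-methylcytosine in DNA. Members were found by gene name, as 12 of the 39429 probes of the array, and all 12 were kept. Of these, 11 were bright enough to be tested, among 25851 probes tested in all. They stand for all 10 genes, because Sox17 and Foxa2 each had a pair of probes and only the dimmer Foxa2 probe was left out.

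RNA was compared on 10 two-colour Agilent arrays, starting from 200 ng of total RNA per labelling. The WT lines 6 and 92 (male) and 7 and 94 (female) were labelled with Cy3, as were the male T1KO lines 65 and 99. The DKO lines 51 and 61 (male) and 60 and 59 (female) and the single male T2KO line 16 were labelled with Cy5. Each DKO line shared its array with a WT line of its own sex, and T2KO 16 shared its arrays with T1KO 65. All lines came from mice of a mixed C57/BL/6 background. The cells grew with LIF on irradiated feeders, and preplating on gelatin removed the feeders before extraction. The second channel of the T1KO 99 arrays held cells of a wrong genotype, per the labels, and entered no comparison. How the knockout alleles were made is not given in the sources used here.

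The primitive endoderm arises from the blastocyst's inner cell mass. It gives rise to the visceral endoderm and parietal endoderm of the yolk sac. FGF signalling through ERK favours it over the epiblast, from which ES cells derive. GATA6 acts early and opposes NANOG, and GATA4, SOX17, SOX7 and FOXA2 mark later steps. Cells of the lineage carry the receptor PDGFRA, polarise with the adaptor DAB2, and secrete laminin and type IV collagen as a basement membrane. ES cultures hold few such cells, and in bulk RNA fewer cells of a type and less RNA per cell cannot be told apart.

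Col4a1 and Col4a2 are arranged head to head and share a promoter, and their levels moved together across the lines more closely than those of any other pair of members. In RefSeq sequence (GRCm38.p6) their first bases overlap, so that the stretch of 22 bases between them, chr8:11312805-11312826 on the plus strand, belongs to both transcripts. It is printed in lower case throughout.
Col4a1 and Col4a2 shared starts: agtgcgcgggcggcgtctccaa
The 250 bases before the Col4a1 start held 31 CpG dinucleotides, and those before the Col4a2 start held 26. The median over 32851 promoter windows in the same table was 6. Foxa2 and Dab2 came next in likeness across the lines, and the windows before their outermost starts are shown for contrast, with capitals for the GATA motif GATAA read on either strand. The Foxa2 window is chr2:148046970-148047219 on the minus strand, and the Dab2 window is chr15:6299539-6299788 on the plus strand.
Foxa2: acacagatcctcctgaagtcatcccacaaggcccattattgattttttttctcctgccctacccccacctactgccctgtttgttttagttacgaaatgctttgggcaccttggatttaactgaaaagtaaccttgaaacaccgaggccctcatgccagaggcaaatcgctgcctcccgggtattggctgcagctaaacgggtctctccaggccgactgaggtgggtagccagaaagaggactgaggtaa
Dab2: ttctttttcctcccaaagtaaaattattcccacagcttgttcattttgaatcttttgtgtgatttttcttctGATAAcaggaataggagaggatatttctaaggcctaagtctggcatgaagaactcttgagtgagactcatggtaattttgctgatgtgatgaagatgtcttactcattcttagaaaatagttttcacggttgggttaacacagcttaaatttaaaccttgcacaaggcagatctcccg
The Dab2 window held the motif once and the Foxa2 window did not hold it, against 22.6% of all windows with at least 1 match. The Foxa2 window held 6 CpG dinucleotides and the Dab2 window held 2. Other starts of these genes differ: of the remaining Foxa2 windows, with 20 and 13 CpG, the latter held the motif once, and the other Dab2 window, with 17 CpG, did not hold it. The table has windows for 5 of the 10 members, and Gata4, Gata6, Sox7, Sox17 and Lama1 have no entry in it. A match is a description of the letters, and binding was not measured.

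Across the whole data set, 1031 of 25851 probes passed a limma adjusted p of 0.05 in DKO over WT, which is 3.99%, with 629 higher and 402 lower. Tet1 lay at log2 levels of 12.78 to 13.12 in WT, 10.52 to 11.07 in DKO and 10.92 to 10.998 in T1KO. Tet2 lay at 11.51 to 12.06 in WT, 9.41 to 10.12 in DKO and 9.74 in T2KO 16, so the targeted genes follow the labels. Between 55.2% and 61.5% of the spots for genes were well above background in Cy3, and between 62.6% and 69.0% in Cy5. The DKO/WT arrays of each sex lay on 1 slide of their own and the single knockouts on the third, so sex and slide cannot be told apart. The labels do not say that repeat arrays came from separate cultures. They were averaged, and p-values measure the spread between lines or pairs of lines.

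No member passed the test in DKO over WT, 0 of 10 against the 3.99% of all probes tested, by limma with Benjamini-Hochberg adjustment over all probes. At an unadjusted p under 0.05 there were 2 of 10, Gata6 and Lama1, and the dimmer Sox17 probe as well, against 6723 of 25851 probes (26.0%). Sox7 passed the brightness filter only through DKO and T2KO arrays, so medians and counts by sign leave it out below, except where 10 are named. The brighter Sox17 probe passed only through DKO, T1KO and T2KO arrays. It stays in these counts, so its sign over WT adds no support. The log2 ratio was above 0 for 8 of 9 genes, and the median was 0.14, against 0.02 over the 20652 genes tested. Lama1 was the exception, at -0.79. With Sox7 the median was also 0.14, and it was 0.36 in the scanner software's log ratios, 0.23 with median centring, 0.29 without pair 61/92 and 0.07 without pair 60/7. Values below are log2 levels per line after normalization, or log2 ratios within arrays. The level of one probe is not comparable with that of another, and levels in Cy5 lines (DKO and T2KO) are open to dye bias against levels in Cy3 lines. Ratios of DKO over WT and of T2KO over T1KO are open to the same bias, since no pair had its dyes swapped. In these ratios genotype and dye cannot be told apart.

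**Figure D1:**
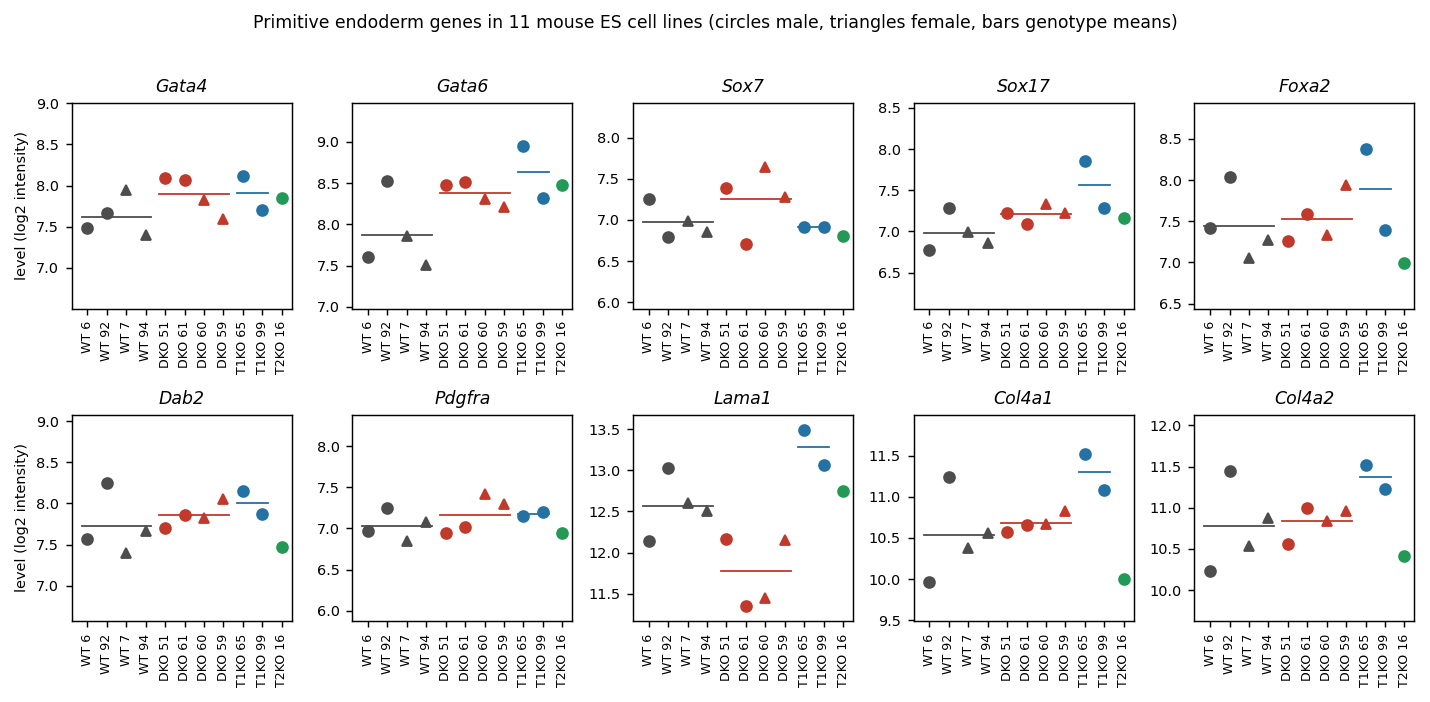
Log2 level of each member (brightest probe) in each of 11 lines, WT grey, DKO red, T1KO blue and T2KO green, with circles for male and triangles for female lines and bars for genotype means. Every panel spans the same log2 range, and T1KO 65 holds the highest level of 7 of 10 genes.

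Gata4 and Gata6 encode the GATA zinc-finger factors of the lineage. Gata6 lay at 7.60, 8.53, 7.86 and 7.50 in WT 6, 92, 7 and 94. It lay at 8.48, 8.52, 8.30 and 8.22 in DKO 51, 61, 60 and 59. WT 92 stood with the DKO lines, while the other WT lines lay below all of them. The ratio was 0.88 in DKO 51/WT 6, -0.01 in DKO 61/WT 92, 0.45 in DKO 60/WT 7 and 0.72 in DKO 59/WT 94. The mean was 0.51 (SE 0.16, 95% interval 0.11 to 0.90, limma adjusted p = 0.129), with 3 of 4 pairs above 0. With each array only centred on its median the value was 0.64 and passed (limma adjusted p = 0.0269), in a setting that shifts the median of all probes to 0.20. T1KO 65 was the highest line at 8.96, T1KO 99 lay at 8.32 and T2KO 16 at 8.48.

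Gata4 spanned less. It lay at 7.49, 7.66, 7.95 and 7.40 in WT 6, 92, 7 and 94, and at 8.09, 8.07, 7.82 and 7.60 in DKO 51, 61, 60 and 59. The groups overlapped, since WT 7 lay above both female DKO lines. The DKO/WT ratio was 0.60 and 0.40 in the male pairs and -0.12 and 0.20 in the female pairs, with a mean of 0.27 (SE 0.13, 95% interval -0.05 to 0.60, limma adjusted p = 0.251). T1KO 65 lay at 8.12, T1KO 99 at 7.71 and T2KO 16 at 7.85. The Gata4 probe lies at chr14:63817858-63817917 (mm9, minus strand) and the Sox7 probe 752 kb away at chr14:64569419-64569478 (plus strand). Their levels had r = -0.05 over the 11 lines. That value is a description, since lines share arrays, slides and dyes and Sox7 was close to background.

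Sox7 and Sox17 encode SOX factors of the F group, which bind DNA through an HMG box. Sox17 (probe at chr1:4481503-4481562, mm9, minus strand) lay at 6.78, 7.28, 6.99 and 6.86 in WT 6, 92, 7 and 94. It lay at 7.23, 7.09, 7.33 and 7.22 in DKO 51, 61, 60 and 59. WT 92 lay inside the DKO range and the other WT lines below it. T1KO 65 was highest at 7.85, above T1KO 99 at 7.28. The mean DKO/WT ratio was 0.24 (SE 0.12, 95% interval -0.07 to 0.55, limma adjusted p = 0.286), and the pair ratios were 0.45, -0.20, 0.33 and 0.36 in the order 51/6, 61/92, 60/7 and 59/94. The probe was well above background on 3 of 6 WT, 6 of 6 DKO, 4 of 4 T1KO and 2 of 2 T2KO arrays. It passed the filter only through knockout arrays, so its ratios over WT are a description. The other Sox17 probe, 405 bases away, was well above background in 9 of 18 labelled channels, against 15 of 18. It gave -0.20 (SE 0.07, limma adjusted p = 0.173), below 0 in 4 of 4 pairs, and the probes disagreed in sign. With median centring that probe gave -0.35 and passed (limma adjusted p = 0.0174).

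Sox7 was close to background. Its probe was well above background on 6 of 6 DKO arrays, 2 of 6 WT arrays, 0 of 4 T1KO arrays and 2 of 2 T2KO arrays. Its levels were 7.26, 6.80, 6.98 and 6.86 in WT 6, 92, 7 and 94 and 7.39, 6.71, 7.64 and 7.27 in DKO 51, 61, 60 and 59. DKO 61 was the lowest of all lines and DKO 60 the highest. The pair ratios were 0.13, -0.08, 0.65 and 0.42 in the order 51/6, 61/92, 60/7 and 59/94, but most WT arrays gave only a bound, so they are a description with no test. No fold against T1KO is given.

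Foxa2 encodes a forkhead factor that can bind its sites in closed chromatin and is also made in definitive endoderm. The tested probe (chr2:147868669-147868728, mm9, minus strand) lay at 7.41, 8.04, 7.05 and 7.27 in WT 6, 92, 7 and 94. It lay at 7.26, 7.59, 7.34 and 7.94 in DKO 51, 61, 60 and 59. The groups overlapped throughout. The ratio was -0.16 and -0.45 in the male pairs and 0.28 and 0.68 in the female pairs, with a mean of 0.09 (SE 0.19, 95% interval -0.40 to 0.58, limma adjusted p = 0.804). T1KO 65 was the highest line at 8.38 and T2KO 16 the lowest at 7.00, with T1KO 99 at 7.40. The untested Foxa2 probe overlaps the tested one by 5 bases and was well above background in 5 of 18 channels. On it, too, T2KO 16 was the lowest line, at 5.92, but WT 92 was the highest, at 7.14.

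Dab2 encodes an endocytic adaptor that the lineage needs for its epithelial order. Its probe (chr15:6390616-6390675, mm9, plus strand) lay at 7.57, 8.25, 7.40 and 7.66 in WT 6, 92, 7 and 94 and at 7.71, 7.86, 7.82 and 8.06 in DKO 51, 61, 60 and 59. WT 92 was the highest of all 11 lines and WT 7 the lowest. The mean DKO/WT ratio was 0.14 (SE 0.15, 95% interval -0.24 to 0.53, limma adjusted p = 0.59), with only pair 61/92 below 0, at -0.39. T1KO 65, T1KO 99 and T2KO 16 lay at 8.15, 7.87 and 7.47.

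Pdgfra encodes the receptor for platelet-derived growth factor, which fibroblasts also carry. It had the narrowest spread of the members. Over 10 spots per array it lay at 6.96, 7.25, 6.85 and 7.08 in WT 6, 92, 7 and 94. It lay at 6.94, 7.02, 7.41 and 7.30 in DKO 51, 61, 60 and 59. Female DKO lines lay above the male ones, and the ratios were -0.02 and -0.23 in male pairs and 0.57 and 0.22 in female pairs. The mean was 0.13 (SE 0.14, 95% interval -0.22 to 0.49, limma adjusted p = 0.582). T1KO 65 and 99 lay at 7.15 and 7.19, and T2KO 16 at 6.95.

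Lama1 encodes the alpha chain of the main laminin in the basement membranes of the early embryo. It varied most: the SD over 11 lines was 0.66, at percentile 97.7 of all genes tested. The probe (chr17:68171924-68171983, mm9, plus strand) lay at 12.14, 13.03, 12.60 and 12.51 in WT 6, 92, 7 and 94. It lay at 12.17, 11.35, 11.44 and 12.15 in DKO 51, 61, 60 and 59. WT 6 lay inside the DKO range, and the other WT lines lay above all DKO lines. The ratio was 0.02 in 51/6, -1.68 in 61/92, -1.16 in 60/7 and -0.35 in 59/94, so the pairs ranged over 1.70 on the log2 scale. The mean was -0.79 (SE 0.30, 95% interval -1.54 to -0.04, limma adjusted p = 0.175), below 0 in 3 of 4 pairs. With 1 pair left out it ran from -1.06 without 51/6 to -0.50 without 61/92, and it was -0.45 with median centring. Both T1KO lines lay above every WT line, T1KO 65 at 13.49 and T1KO 99, just above WT 92, at 13.06. T2KO 16 lay at 12.75.

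Col4a1 and Col4a2 encode the chains of the major type IV collagen. Col4a1 (10 spots per array, chr8:11199009-11199068, mm9, minus strand) lay at 9.96, 11.23, 10.38 and 10.56 in WT 6, 92, 7 and 94. It lay at 10.57, 10.66, 10.67 and 10.82 in DKO 51, 61, 60 and 59. The DKO lines spanned 0.26 on the log2 scale and the WT lines 1.27, so the WT range held every DKO line. WT 92 had 2.41 times the level of WT 6, both male and both in Cy3. Col4a2 (chr8:11448840-11448899, mm9, plus strand) followed, at 10.23, 11.44, 10.54 and 10.88 in the same WT lines and 10.56, 10.999, 10.84 and 10.96 in the DKO lines. The mean DKO/WT ratio was 0.14 for Col4a1 (95% interval -0.36 to 0.64, limma adjusted p = 0.682) and 0.07 for Col4a2 (95% interval -0.30 to 0.44, limma adjusted p = 0.794). T1KO 65 was highest of all lines in both, at 11.52 and 11.52, and T1KO 99 lay at 11.08 and 11.23. T2KO 16 lay at 9.998 and 10.41.

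**Figure D2:**
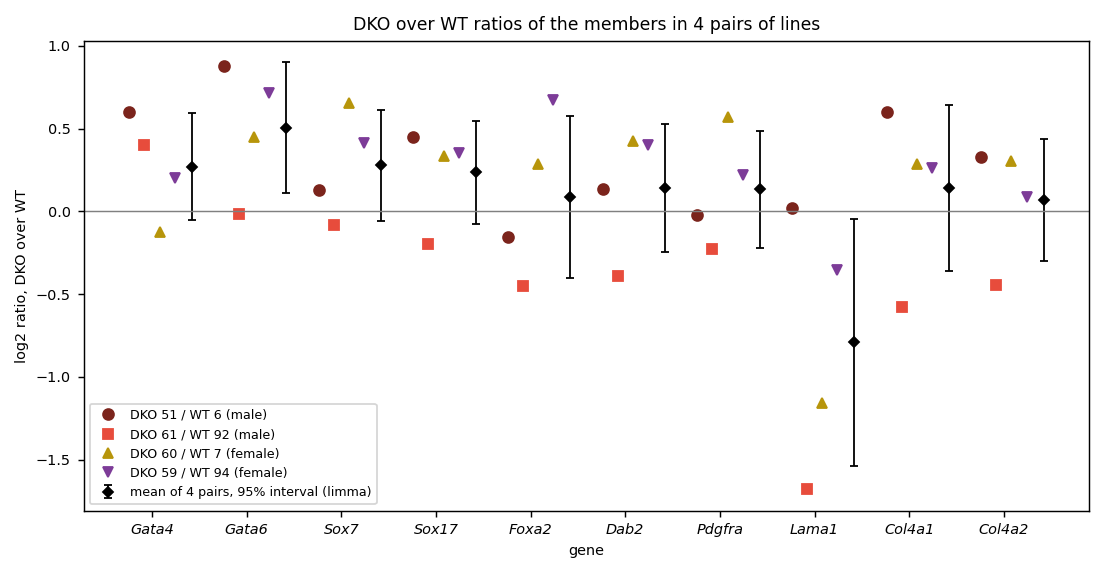
Log2 DKO over WT ratio of each member in each pair of lines, with the mean of 4 pairs and its 95% interval from limma. Red squares, the pair DKO 61/WT 92, lie below 0 for 9 of 10 genes, and the Lama1 mean lies at -0.79.

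The pairs of lines did not share one direction. The median over 9 members was 0.33 in 51/6, 0.31 in 60/7 and 0.26 in 59/94, with 7, 7 and 8 of 9 genes above 0. In pair 61/92 it was -0.39, with 1 of 9 above 0. The median over all genes lay between 0.01 and 0.02 in each pair. The low ratios in 61/92 went with a high WT partner: WT 92 was the highest of the WT lines for 8 of 10 genes, while DKO 61 lay inside the range of the other DKO lines for Gata4, Foxa2, Dab2, Pdgfra and Col4a1. DKO 61 was the lowest DKO line for Sox7, Sox17 and Lama1 and the highest for Gata6 and Col4a2. With 1 pair left out, 4 of the ratios near 0 changed sign: Foxa2 was -0.11 without 59/94, Col4a1 was -0.01 and Col4a2 -0.02 without 51/6, and Pdgfra was -0.01 without 60/7. Repeat arrays of the same pair differed by a median of 0.04 and at most 0.24 in these ratios, over 3 pairs with repeats. The spread of these ratios between pairs was 0.64 to 1.70. Levels of a line repeated less closely. They differed between repeat arrays by a median of 0.08 and at most 0.44, over 7 lines with repeats. For Gata6 the difference was 0.44 in DKO 59 and 0.43 in WT 94, above its range over the DKO lines, 0.30. Rankings of lines by level carry that limit.

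The test of the difference between male and female DKO effects called no member, 0 of 10, against 0% of all probes by limma (1313 of 25851 at an unadjusted p under 0.05). At that unadjusted limit there were 2 of the 9 members without Sox7, Foxa2 and Pdgfra, against 5.1% of all probes. The male minus female difference was -0.78 for Foxa2 (male mean -0.30, female mean 0.48) and -0.52 for Pdgfra (male mean -0.13, female mean 0.39). Both had a limma adjusted p of 0.833. It was below 0 for 8 of 9 genes, with Gata4 at 0.46, and the median was -0.25. The feeder fibroblast markers differed in the same direction, with a median of -0.68 over 24 genes and 1 of 24 above 0, and their part in the members' difference was not tested.

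Of the single knockouts, T1KO was compared with male WT within Cy3, so no dye difference enters, though genotype and slide cannot be told apart. No member was called, 0 of 10, against 0% of all probes by limma (3456 of 25851 at an unadjusted p under 0.05), and 0 members had an unadjusted p under 0.05. Without Sox7 the difference was above 0 for 9 of 9 genes, with a median of 0.54 against -0.00 over all genes. Sox17 is among the 9, although its probe passed the brightness filter only through knockout arrays. The largest were 0.70 for Col4a1 (95% interval -0.31 to 1.71, limma adjusted p = 0.502), 0.69 for Lama1 (95% interval -0.06 to 1.44, limma adjusted p = 0.402) and 0.57 for Gata6 (95% interval -0.31 to 1.46, limma adjusted p = 0.528). These rest on 2 lines against 2, and the female WT lines entered only for the spread. Without WT 6 the median was 0.07 and 5 of 9 were above 0. Without WT 92 it was 0.79, without T1KO 65 it was 0.25 and without T1KO 99 it was 0.68.

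T2KO 16, the only line of its genotype, was set against its array partner T1KO 65. Without Sox7, which T1KO arrays did not measure, the 9 members lay below 0, with a median of -0.68 against 0.01 over all genes. None was called, against 0% of all probes by limma (3293 of 25851 at an unadjusted p under 0.05), and 5 of 9 had an unadjusted p under 0.05. The spread was taken from the DKO/WT pairs. The ratio was -1.53 for Col4a1 (SE 0.42, 95% interval -2.65 to -0.40, limma adjusted p = 0.321), -1.39 for Foxa2 (SE 0.20, limma adjusted p = 0.271) and -1.11 for Col4a2 (SE 0.30, limma adjusted p = 0.318). Lama1, Sox17, Dab2 and Gata6 lay at -0.74, -0.68, -0.68 and -0.48, and Gata4 and Pdgfra at -0.26 and -0.20. Over 17 other genes of the extraembryonic endoderm the median was -0.97, with 2 of 17 above 0, and 0 of 17 passed. The ES cell genes lay the other way, with a median of 0.54 and 13 of 15 above 0, and 0 of 15 passed.

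**Figure D3:**
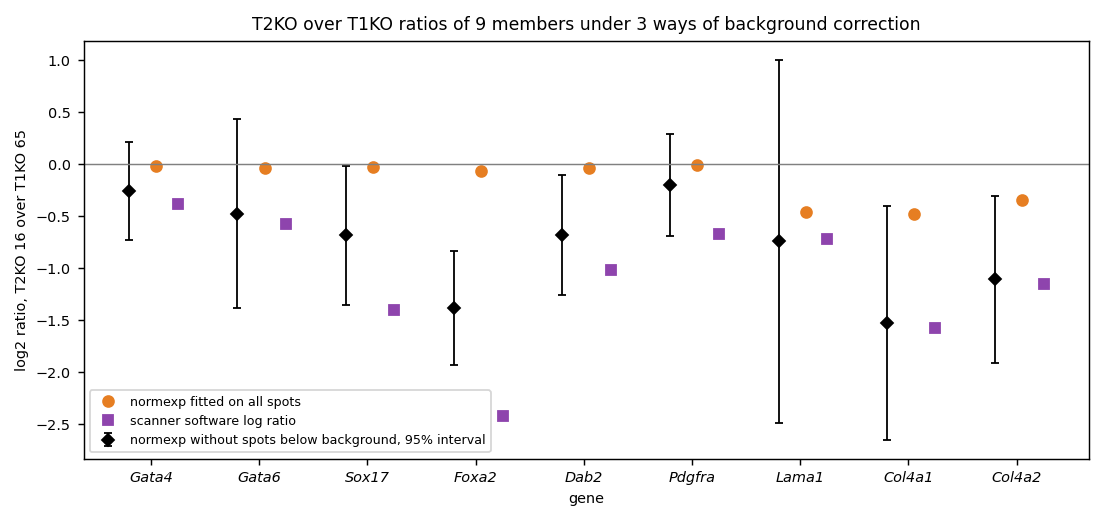
Log2 T2KO 16 over T1KO 65 ratio of 9 members (Sox7 left out) with its 95% interval, and the same ratio under other background handling. With background fitted on all spots the members lie between -0.48 and -0.01, and in the scanner software's own ratios Foxa2 lies at -2.42.

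The sizes of these ratios depend on how background is handled. All 3 settings use the same 2 arrays of 1 pair of lines, so they do not repeat the measurement. The gene lists named above are given for the main setting only. With background fitted on all spots the members' median was -0.04, with Foxa2 at -0.06, Col4a1 at -0.48 and Dab2 at -0.03. Gata4 lay at -0.01 and Pdgfra at -0.007 in that setting, so for these the sign says little. In the scanner software's log ratios the median was -1.02, with Foxa2 at -2.42, Sox17 at -1.41 and Col4a1 at -1.58. The sign held in all 3 settings for 9 of 9 members, and none was called in any of them.

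T2KO 16 against male WT crosses dye and slide. As T2KO is a single line, the spread was taken from the WT lines of both sexes and the T1KO lines. None of the 10 members was called there, against 0.0116% of all probes by limma (3 of 25851), and 0 members had an unadjusted p under 0.05, against 4106 of 25851 probes (15.9%). The median was -0.16 without Sox7, with 4 of 9 above 0. Foxa2 lay at -0.73 (95% interval -1.82 to 0.36, limma adjusted p = 0.451), Col4a1 at -0.60 and Gata6 at 0.41. Without WT 92 the median was 0.18, and without WT 6 it was -0.30. The sign of the median thus depended on which male WT line was kept.

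A contrast in which the dye drops out takes the mean ratio of the male DKO pairs, subtracts the ratio of T2KO 16 to T1KO 65 and divides by 2. It stands for the loss of Tet1 if effects add. It shares arrays with the comparisons above. Its T2KO 16 over T1KO 65 part depended on how background was handled: Foxa2 lay at -1.39 there, and at -0.06 with background fitted on all spots. The contrast was not run with that fit, so the values and intervals below are those of the main background setting. No member was called, 0 of 10, against 0% of all probes by limma (2647 of 25851 at an unadjusted p under 0.05), and 4 members had an unadjusted p under 0.05. Without Sox7 the median was 0.40 and 8 of 9 were above 0, with Col4a1 at 0.77 (95% interval 0.08 to 1.46, limma adjusted p = 0.46), Foxa2 at 0.54 (95% interval 0.20 to 0.88, limma adjusted p = 0.39) and Gata4 at 0.38 (95% interval 0.10 to 0.67, limma adjusted p = 0.42). Lama1 lay at -0.04.

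The members differed between lines more than most genes did. The SD over 11 lines was above the median of all genes (0.20) for 9 of 10, and at or above percentile 90 for Lama1, Col4a1, Gata6, Foxa2 and Col4a2. Over the 4 WT lines alone, Col4a1 stood at percentile 95.8, Col4a2 at 95.6, Gata6 at 94.0 and Foxa2 at 92.5. Pdgfra, at percentile 39.0 over 11 lines, lay below the median. In order of the mean centred level over all 10 members, Sox7 included, T1KO 65 came first at 0.54, then WT 92 at 0.28 and T1KO 99 at 0.14. The DKO lines lay between -0.08 and 0.09, and T2KO 16 lay at -0.18. WT 7 and WT 94 stood level at -0.21, and WT 6 was lowest at -0.33.

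**Figure D4:**
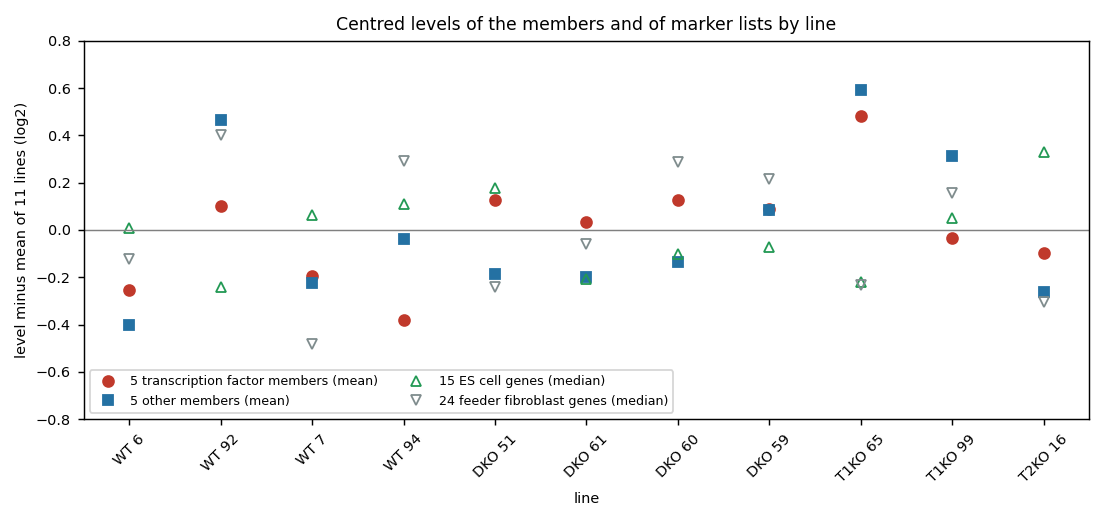
Level minus the mean of 11 lines (log2) for the 5 transcription factor members and the 5 other members (means), and for 15 ES cell and 24 feeder fibroblast genes (medians), by line. T1KO 65 leads for both groups of members, at 0.48 and 0.59. The factors include Sox7, which lay close to background. Its feeder median is -0.23, and the log2 of its summed feeder level, which is not drawn, was 17.61.

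The transcription factors and the other members differed in some lines. In WT 94 the factors stood at -0.38 and the others at -0.04, and in T1KO 99 at -0.03 and 0.31. In DKO lines the factors stood at 0.03 to 0.13 and the others at -0.20 to 0.08. The factor means hold Sox7, which lay close to background and was highest in DKO 60, at 7.64. The factors' mean of 0.13 in that line rests in part on it. Feeder markers moved with some of these. Their median centred level was highest in WT 92 at 0.40 and lowest in WT 7 at -0.48, and in the DKO/WT pairs it was 0.75 in 60/7, -0.53 in 61/92, -0.09 in 51/6 and -0.04 in 59/94. The number of feeder markers well above background was 23 or 24 of 24 in every line, and the log2 of their summed level was 17.32 to 18.21 in WT, 17.34 to 17.57 in DKO and 17.61 to 17.81 in T1KO. Over 11 lines r with the feeder median was 0.81 for Pdgfra, 0.59 for Dab2, 0.49 for Col4a2 and 0.39 for Col4a1, and -0.60 for Gata4. In T1KO 65, the highest line for 7 members, the feeder median was -0.23. The log2 of the summed feeder level in that line was 17.61, inside the WT range and above the DKO range. The part of feeder RNA in the members' values was not tested.

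Levels of the members were correlated over 11 lines, which share arrays, slides and dyes. Of 45 pairs of genes, 35 had r above 0 and 11 had r above 0.7, with a median of 0.45 (0.55 after centring within dye). The share over other pairs of genes was not computed, so these counts are a description. Col4a1 and Col4a2, whose 22-base shared stretch is printed above, had r = 0.97, and 0.96 within dye. Foxa2 and Dab2 had 0.91, Dab2 and Col4a2 0.88, Dab2 and Col4a1 0.87, Gata6 and Sox17 0.87, and Gata4 and Gata6 0.73. Sox7 had r between -0.47 (with Lama1) and 0.34. Its probe was well above background in 10 of 18 labelled channels, so its r is limited by signal near background. Against the ES cell median, Foxa2 had r = -0.80, Dab2 -0.78 and Col4a2 -0.70, while Gata4 had -0.12 and Lama1 0.06.

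**Figure D5:**
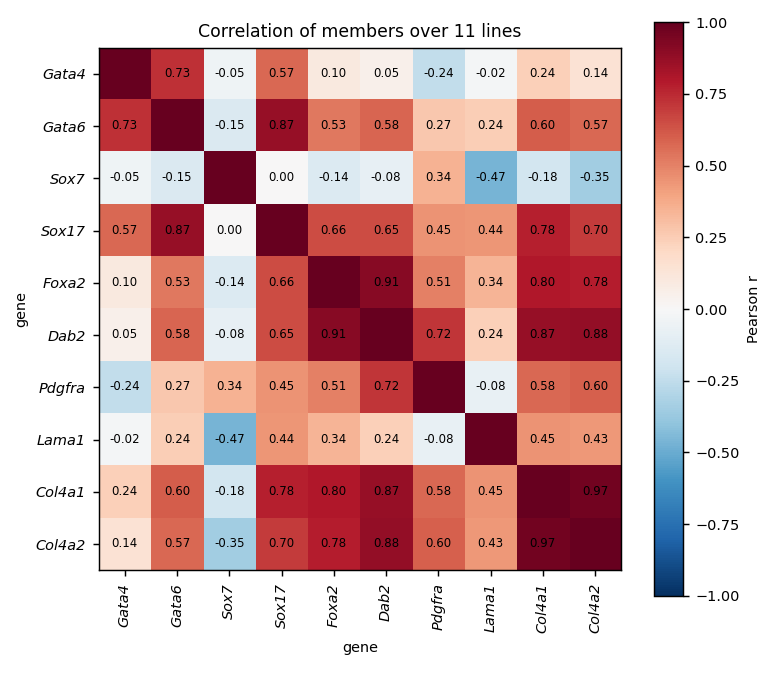
Pearson r between the log2 levels of members over 11 lines, from -1 (blue) to 1 (red). Col4a1, Col4a2, Dab2, Foxa2 and Sox17 form a block of high values, and the Sox7 row runs from -0.47 to 0.34. Sox7 lay close to background.

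The mean of the 5 transcription factors used here holds Sox7. The genes most like it over 11 lines were Cd47 (r = 0.93), 8030453O22Rik (0.90), Mfsd13b (0.90), LOC100044951 (0.89) and Ebpl (0.88). Cd47 encodes a cell-surface signal that restrains phagocytosis. The genes most like the other members were Tspan9 (r = 0.96), a tetraspanin, 2200002D01Rik (0.95), Glipr1 (0.95), Parva (0.94), an adaptor of integrins, and Aqp8 (0.94), a water channel. Aqp8 lay at 8.78 in WT 92, 9.60 in T1KO 65 and 8.44 in T1KO 99, and between 6.77 and 7.37 in the other lines. These were picked from 20652 genes by likeness, and their r is a description.

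Lists of related genes gave the setting. In DKO over WT, 0 of 17 extraembryonic endoderm genes passed (median -0.04), and Cited1, a transcriptional coregulator, lay at 1.02 with 4 of 4 pairs above 0 (limma adjusted p = 0.105) but did not pass. Lrp2, the endocytic receptor megalin, lay at 0.59. Of 20 other basement membrane genes 0 passed (median -0.00), with Nid1, which links laminin and collagen, at 0.44, Sparc, a collagen-binding protein, at 0.29 and Col18a1 at 0.24. Plod1, a lysyl hydroxylase of collagens, lay at -0.53, below 0 in 4 of 4 pairs (limma adjusted p = 0.056), and did not pass. Of 18 relatives of the members 0 passed, with Pdgfc, a ligand of the Pdgfra receptor, at 0.71 and Lama5 at -0.20. Of 14 FGF and ERK genes 0 passed (median 0.12), with Fgf4 at 0.21, Spry2 at -0.45 and Fgf5, which marks cells leaving the naive state, at 1.69 (limma adjusted p = 0.167), with 3 of 4 pairs above 0. Of 15 ES cell genes 0 passed (median -0.04), with Nanog at -0.28, Dppa3 at -0.69 and Tcl1 at 0.43. Among 9 genes of definitive endoderm and streak and 12 of trophectoderm, 1 passed, Eomes, held by both lists, which rose by 0.88 (SE 0.15, limma adjusted p = 0.0478). Of 24 feeder markers 1 passed, S100a6, which fell by 0.66 (SE 0.09, limma adjusted p = 0.0353). Neither call was kept with any 1 pair of lines left out, since no probe passed then.

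In T1KO against male WT the basement membrane list had a median of 0.27, with 17 of 20 above 0, and the extraembryonic endoderm list 0.39, with 12 of 17 above 0. None of these genes passed, by limma. In T2KO over T1KO the basement membrane list had a median of -0.31, with 1 of 20 above 0, which was Nid1 at 0.85, and the trophectoderm list -0.52, with 2 of 12 above 0. Krt8 and Krt18, keratins of simple epithelia that the primitive endoderm shares with trophectoderm, lay at -3.34 and -3.04 in that ratio (limma adjusted p = 0.271 and 0.268) and did not pass. Their DKO/WT ratios were -0.33 for Krt8 and 0.21 for Krt18. The T2KO over T1KO values given here are those of the main background setting only. In that ratio the members' median was -0.68 in the main setting and -0.04 with background fitted on all spots.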

How the data were processed

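The members and the gene lists were chosen with earlier results of these data known. Per the file headers, the scanner files give unnormalized mean and local background intensity for each spot and channel from Agilent Feature Extraction 10.1.1.1. Per the file headers, they further give a log10 ratio of Cy5 over Cy3 that the software had corrected and dye-normalized. The authors' value table, deposited close to a log2 scale in the direction of Cy5 over Cy3, has 31595 rows and 10 of the 12 member probes. Its normalization is not given in the sources used here, and the medians of its columns ran from 0.00178 to 0.00752.

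In limma 3.58.1 on R 4.3.3, background was corrected with normexp (offset 50, fitted without the 71 to 122 spots per array below their local background), ratios by loess within arrays and levels by Aquantile between arrays. This departs from a fit on all spots, which is an alternative. Control spots and outlier flags were left out, spots of a probe were averaged, then repeat arrays. Tested probes were well above background on every array of 1 or more of the groups by genotype and sex. Genes are represented by the probe with the highest mean level over the labelled lines. Tests were two-sided limma fits (lmFit, eBayes) with Benjamini-Hochberg adjustment at 0.05 over all tested probes, and the scripts were tested on simulated data. Levels of the T1KO 99 arrays depend in part on the excluded channel, which entered the normalization.

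All 12 probes' accessions matched the member's symbol. Of all probes, 26581 were named by accession. Positions are the array's own (mm9), and exons were not annotated. Promoter windows come from RefSeq (GRCm38.p6). Named genes of other lists were at most 4 a list, the brightest 2 in WT and the 2 of largest DKO/WT ratio among those above background on all arrays. The most similar genes were the 5 of highest r over 11 lines. Deviations of the lines sharing an array, from the mean of their genotype, correlated at 0.199 to 0.514. Plots were drawn with matplotlib 3.10.9. Precision is limited by how few arrays and lines there were.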

Additional observations from a re-analysis of the deposited data

Results flagged for a closer look

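In a search of 22 groups of 4 lines and 11 groups of 4 pair ratios for a value far from the others, 1 stood out. Chance gives about 1 in every 20 groups searched, so 1 of 33 is no more than chance gives. The dimmer Sox17 probe lay at 6.75 in DKO 61, against 6.63 to 6.65 in the other DKO lines. It was well above background on 2 of 6 DKO arrays, so the value lies near the detection limit.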

How the results depend on the processing

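Among the single-member results in DKO over WT, 111 kept their direction and side of the threshold, 2 passed under another setting and 7 changed sign. The median over 10 members, 0.14, stayed above 0 in each alternative run, at 0.36 in the scanner log ratios, 0.23 with median centring and 0.07 to 0.29 with 1 pair left out. It holds Sox7 and Sox17, at 0.83 and 0.93 in the scanner log ratios. Both passed the brightness filter only through knockout arrays, which limits what the sign of this median can show. The alternatives use the same pairs of lines, so they do not repeat the measurement. The number of probes called in DKO over WT, 1031, was 173 with normexp on all spots, 536 in the authors' value table, 1739 with every array kept and pairs as a random block, 7 with sex as a covariate and 8897 with median centring, and 0 with each pair left out in turn (4484 to 6045 at an unadjusted p under 0.05, limma). Of the calls 61.0% were higher in the main setting, 91.8% with median centring, 73.0% in the scanner log ratios and 51.5% with the random block. Without WT 6 or WT 92, T2KO against male WT gave 0 calls in place of 3. The causes were not tested. Signs changed for Foxa2 (-0.017 in the scanner log ratios) and the dimmer Sox17 probe (0.027 in the authors' table). With 1 pair left out the ratio ran from -0.0092 to 0.38 for Col4a1, -0.017 to 0.24 for Col4a2, -0.011 to 0.26 for Pdgfra and -0.11 to 0.27 for Foxa2. The fit of T2KO over T1KO on all spots was added after the data were seen. No paired analysis was possible because the replicate numbers in the titles count repeat arrays of the same lines and pair nothing across groups. The fits of DKO over WT already pair the lines that shared an array. Sox7 and the dimmer Sox17 and Foxa2 probes were limited by signal near background, as was the brighter Sox17 probe on part of the WT arrays.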
